A study of Mus musculus with 4 samples.

Results

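The genes described here are the clustered histone genes that dividing cells switch on in S phase, read in leukemia cells of mice with and without Ybx1. They are the rows of the expression table whose symbol begins with Hist1h, Hist2h, Hist3h or Hist4h and which are not named as pseudogenes, with a log2 value of at least 0 in 2 or more of the 4 libraries. 56 genes met this rule, of 17303 genes that passed the same filter and 55339 rows in all. By the histone class in their symbol, 5 are H1 genes, 14 H2A, 15 H2B, 10 H3 and 12 H4. Among the H2A genes Hist1h2aj is annotated as an unprocessed pseudogene, but its symbol met the rule and it is kept. By cluster, 50 carry Hist1 symbols and lie on chromosome 13, 4 carry Hist2 symbols on chromosome 3, and Hist3h2a and Hist4h4 lie on chromosomes 11 and 6.

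The tested libraries are 2 Ybx1 knockout libraries (replicates 1 and 3, labelled YBX1-/- and cKO), and they are set against 2 WT libraries (replicates 4 and 5). All 4 come from leukemia cells taken from the bone marrow of C57BL/6 mice, and all were made from RNA selected on oligo dT beads. The labels give neither the age of the animals, nor the oncogene that started the leukemia, nor the Cre line or cell type in which Ybx1 was deleted. They do not say that replicates are separate animals, so p-values measure only the spread between these libraries, which may be technical. YBX1 binds RNA through a cold-shock domain. The series title names mRNA stability and the survival of myeloid leukemia cells as its subject.

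H2A, H2B, H3 and H4 form the protein core around which DNA is wrapped, and H1 binds the linker DNA between cores. The mRNAs of these genes end in most cases not in a poly(A) tail but in a short RNA hairpin, the histone stem-loop, which SLBP binds and which, with the U7 snRNP, directs cleavage of the 3' end. The hairpin also serves the rapid decay of the mRNA when DNA synthesis stops. Some of the genes also yield polyadenylated transcripts from a site further downstream, as is known of HIST1H2AC and HIST2H2BE in human cells. In libraries selected on oligo dT the values below therefore show what of each gene's RNA was retained, and a change in transcript level cannot be told apart from a change in the share that carries a tail. In bulk samples, fewer cells of a type and less RNA per cell cannot be told apart either.

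The stem-loops are shown because they set these mRNAs apart from the rest of the selected RNA. A search of the annotated transcripts (GENCODE M21) for GGNNNNTTTNNNNNCC with 6 paired bases on each side found a hairpin in 37 of the 56 genes, against 173 of 21924 protein-coding genes (0.789%), of which 44 were Hist1 to Hist4 genes. Annotated transcripts may stop short of a hairpin, so a gene without a match may still have one. 21 of the 37 shared the same 16 bases, and the hairpins of 5 and 1 other genes held another loop on the same stem. The H4 genes had stems of their own. Of their 10 hairpins 9 open with GGCCC and that of Hist1h4j with GGTCC, while all 27 of the H1, H2A, H2B and H3 genes open with GGCTC. Each line gives 26 bases on the sense strand of the gene, 5' to 3', with the coordinates of the hairpin in GRCm38 and the hairpin in capitals.
Hist1h2ag (H2A, chr13:22042483-22042498, minus strand): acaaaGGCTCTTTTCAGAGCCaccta
Hist1h2bj (H2B, chr13:22043638-22043653, plus strand): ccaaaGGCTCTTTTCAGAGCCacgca
Hist1h1c (H1, chr13:23739512-23739527, plus strand): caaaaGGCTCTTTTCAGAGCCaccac
Hist3h2a (H2A, chr11:58955172-58955187, plus strand): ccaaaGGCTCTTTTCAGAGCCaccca
Hist1h3e (H3, chr13:23561903-23561918, minus strand): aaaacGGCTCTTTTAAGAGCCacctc
Hist2h2ac (H2A, chr3:96220418-96220433, minus strand): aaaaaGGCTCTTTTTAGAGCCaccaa
Hist1h4d (H4, chr13:23581950-23581965, plus strand): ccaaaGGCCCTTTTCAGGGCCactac
Hist2h4 (H4, chr3:96262939-96262954, minus strand): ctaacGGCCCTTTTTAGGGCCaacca
Hist1h4j (H4, chr13:21735437-21735452, plus strand): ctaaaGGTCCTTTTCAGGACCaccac

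No counts are given, so depth is unknown, and 1 of the WT libraries, replicate 4, was unlike the rest. Across all tested genes its values correlated with theirs at a Pearson's r of 0.69 to 0.71, whereas the other 3 reached 0.93 to 0.96 with each other, which is a description across genes. Its values lay on narrow bands. Of 1532 genes whose median in the other libraries lay between 6.3 and 7.2, WT replicate 4 put 1174 between 4.6 and 5.7 and none between 5.7 and 6.7, where WT replicate 5 had 587. In 11.3% of all tested genes it lay more than 3 log2 above the median of the other libraries. Among the histone genes it did so in 5 of 56. It was the highest of the 4 libraries in 45 of the 56 (80.4%), against 44.6% of all tested genes, and the lowest in 4 (7.14%), against 35.1%. Each result is therefore given with both WT libraries and against WT replicate 5 alone, where a single library stands for WT. Counts and medians against WT replicate 5 carry no test. The limma fit without WT replicate 4 called none of the 17303 genes, with 1799 at an unadjusted p under 0.05, of which 1 was a histone gene (Hist4h4).

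Ybx1, the deleted gene, was read at 7.29 and 8.33 log2 in knockout replicates 1 and 3, against 19.70 and 10.002 in WT replicates 4 and 5. Its groups did not overlap. The knockout mean was 2.19 log2 below WT replicate 5 (difference -2.19), with limma giving -7.04 (SE 3.49, adjusted p = 0.826) over all 4 libraries. Against WT replicate 4 alone the difference was -11.89 log2. The gene was thus still read in both knockout libraries.

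With all 4 libraries none of the 17303 genes passed limma's test at an adjusted p of 0.05 (percent called 0), and so none of the 56 histone genes did. At an unadjusted p under 0.05, 117 genes were higher (0.676%) and 534 lower (3.09%) in knockout libraries, none of them a histone gene. The lowest unadjusted limma p among the histone genes was 0.165, and their adjusted p ranged from 0.826 to 0.988. The median difference of the histone genes was -0.43 log2, against -0.09 over all tested genes. Against WT replicate 5 alone it had the other sign, 0.31, against 0.07 over all tested genes. With both WT libraries the medians lay close to those of genes at the same level. Where the median of the other libraries was under 2 log2, the 22 histone genes had -0.43 against -0.47 over all genes at that level. Between 2 and 5 log2 it was -0.50 against -0.49, and at 5 log2 or more 0.32 against 0.61.

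In 11 of the 56 genes both knockout libraries were lower than both WT libraries (19.6%), against 18.8% of all tested genes. They lay above both WT values in 4 of the 56 (7.14%), against 17.3% of all. The low count above both followed the level of the genes. It was 0 of 22 under 2 log2, as in all 5003 genes at that level, 1 of 24 (4.17%) between 2 and 5 log2, against 5.61%, and 3 of 10 at 5 log2 or more, against 31.1%. Against WT replicate 5 alone, both knockout values were higher in 35 of the 56 (62.5%), against 41.8% of all tested genes, and lower in 12 (21.4%), against 33.4%. The share above was larger than in all genes in each range of level. Where the median of the other libraries was under 2 log2, 17 of 22 histone genes (77.3%) lay above WT replicate 5, against 48.7% of 5003 genes. Between 2 and 5 log2 it was 13 of 24 (54.2%), against 37.6% of 3242 genes, and at 5 log2 or more 5 of 10 (50%), against 39.5% of 9058 genes. The gap at 5 log2 or more thus rests on few genes. Some of the 17 genes under 2 log2 were near ties in knockout replicate 1. Hist1h3h and Hist1h2be, for example, lay 0.0003 and 0.0006 log2 above WT replicate 5 there. Over all genes under 2 log2 the median of knockout replicate 1 minus WT replicate 5 was 0.0006 log2.

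**Figure D1:**
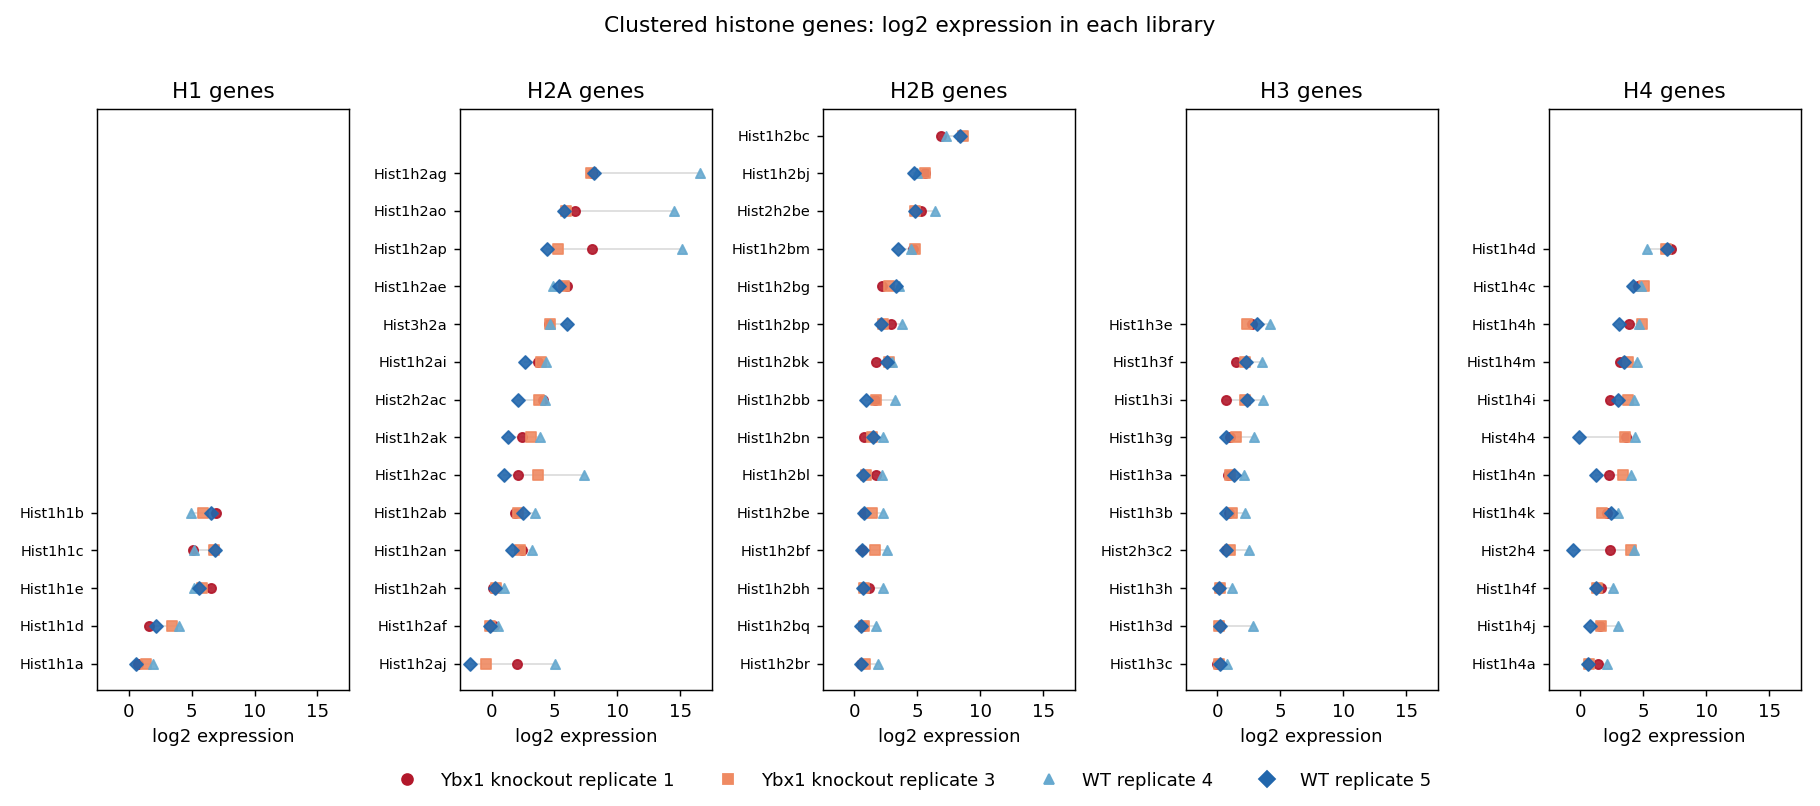
Log2 expression (horizontal axis) of the 56 histone genes in each of the 2 Ybx1 knockout libraries and the 2 WT libraries, 1 row per gene and 1 panel per histone class, with 1 point per library and a grey line from the lowest to the highest. WT replicate 4 is the rightmost point in 45 of the 56 genes, and lies more than 3 log2 above the median of the other 3 libraries in 5 H2A genes.

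The H1 genes encode the linker histones. Hist1h1e (chr13:23620629-23622558, minus strand) was the only one of the 5 above both WT libraries, at 6.56 and 5.84 log2 in knockout replicates 1 and 3, against 5.17 and 5.63 in WT replicates 4 and 5. Its groups did not overlap, by a limma difference of 0.80 (SE 0.70, adjusted p = 0.826). Its annotated exons overlap those of Hist1h2be on the same strand, so reads of the 2 genes may be divided between them. Hist1h1b stood at 6.96 and 5.94 log2 in knockout libraries, against 4.97 and 6.53 in WT libraries, and Hist1h1d at 1.59 and 3.47 against 3.97 and 2.21. In both the groups overlapped. Hist1h1c (chr13:23738808-23740367, plus strand) took 5.11 and 6.77 log2 in knockout replicates 1 and 3, against 5.16 and 6.85 in WT replicates 4 and 5. There the libraries formed a low and a high pair with 1 knockout and 1 WT library in each. Over the 5 H1 genes the median difference was -0.06 log2, and 0.32 against WT replicate 5. Of these, 2 lay above and 1 below that library (40% and 20%), against 41.8% and 33.4% of all tested genes.

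The H2A genes hold the widest gaps between libraries, all through WT replicate 4, while in knockout replicate 3 and WT replicate 5 the highest histone gene was the H2B gene Hist1h2bc. Hist1h2ag (chr13:22042460-22042944, minus strand) was at 7.96 and 7.89 log2 in knockout libraries, against 16.56 in WT replicate 4 and 8.18 in WT replicate 5. Hist1h2ao (chr13:21810465-21810944, plus strand) was at 6.63 and 5.95 log2, against 14.46 and 5.79. Hist1h2ap (chr13:21833026-21833507, minus strand) was at 7.96 and 5.27 log2, against 15.09 and 4.44. In each of the 3 genes WT replicate 4 lay more than 8 log2 above the median of the other libraries, while WT replicate 5 lay within 1 log2 of the nearer knockout library.

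The limma difference was -4.45 (SE 2.91) for Hist1h2ag, -3.83 (SE 2.93) for Hist1h2ao and -3.15 (SE 3.66) for Hist1h2ap, with adjusted p from 0.826 to 0.833. Against WT replicate 5 the same genes differed by -0.26, 0.50 and 2.18 log2. Against WT replicate 4 alone they differed by -8.64, -8.17 and -8.47 log2, and the H3 genes Hist1h3d and Hist1h3h by -2.70 and -0.99. The 3 H2A genes made up 99.3% of the summed linear level of the 56 genes in WT replicate 4, while in the other libraries the top 3 genes made up 42.7%, 48.4% and 52.9% (knockout replicates 1 and 3 and WT replicate 5). Summed without Hist1h2ag, Hist1h2ao and Hist1h2ap, the log2 level was 9.84 and 10.23 in knockout libraries, against 10.12 and 10.02 in WT libraries. The groups overlapped in that sum.

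Hist1h2ac and Hist1h2aj were the other members over 3 log2 higher in WT replicate 4 than in the median of the rest. Hist1h2ac stood at 2.09 and 3.67 log2 in knockout libraries, against 7.37 and 1.02 in WT libraries. Hist1h2aj, annotated as an unprocessed pseudogene, stood at 2.03 and -0.41 log2, against 5.03 and -1.73. Hist1h2ae was above both WT libraries, at 5.97 and 5.79 log2 against 4.87 and 5.33, a limma difference of 0.78. Hist1h2ab was below both, at 1.89 and 2.09 log2 against 3.48 and 2.52.

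Hist3h2a (chr11:58954685-58956830, plus strand) had the lowest difference from WT replicate 5 of all 56 genes. It stood at 4.601 and 4.65 log2 in knockout libraries, against 4.66 in WT replicate 4 and 6.02 in WT replicate 5. The knockout mean was thus 1.39 log2 below WT replicate 5 (difference -1.39) but 0.03 below WT replicate 4 (difference -0.03). Over all 14 H2A genes the median difference was -0.57 log2, and 0.63 against WT replicate 5. Of these, 10 lay above that library and 3 below (71.4% and 21.4%), against 41.8% and 33.4% of all tested genes.

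**Figure D2:**
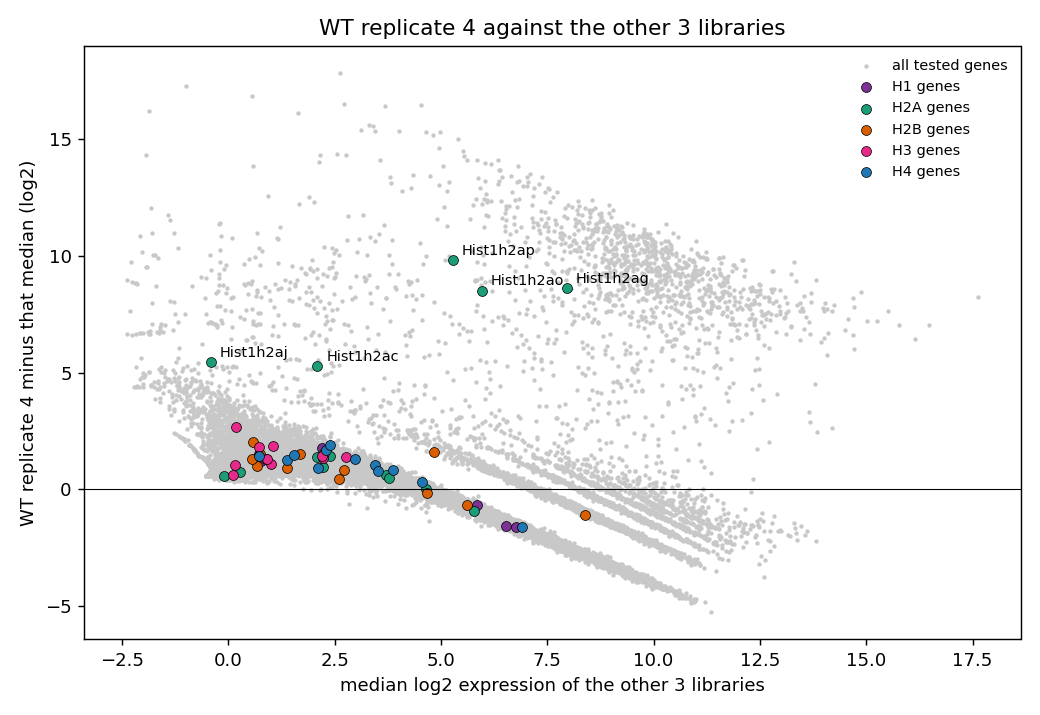
WT replicate 4 minus the median of the other 3 libraries (log2, vertical axis) against that median (log2, horizontal axis), for all 17303 tested genes (grey) and the 56 histone genes (coloured by class). The 5 labelled H2A genes lie more than 3 log2 above 0, while the other 51 histone genes lie between -1.62 and 2.68 on the bands formed by the grey points.

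Of the H2B genes, which code for the partner of H2A in the nucleosome core, Hist1h2bj and Hist1h2bm were above both WT libraries. Hist1h2bj (chr13:22043214-22043676, plus strand) was read at 5.63 and 5.61 log2 in knockout libraries, against 4.95 and 4.76 in WT libraries. Its knockout replicates differed by less than the distance to either WT library, and the limma difference was 0.77 (SE 0.68, adjusted p = 0.826). Hist1h2bm was at 4.66 and 4.82 log2, against 4.51 and 3.49, so WT replicate 4 lay just under the knockout libraries. Hist1h2bc (chr13:23684199-23692908, plus strand) had the highest level of the class. As in Hist1h1c, knockout replicate 1 and WT replicate 4 formed the low pair, at 6.85 and 8.62 log2 in knockout libraries against 7.30 and 8.39 in WT libraries. Hist2h2be (chr3:96221119-96223738, plus strand) was at 5.28 and 4.84 log2, against 6.42 and 4.84. Hist1h2bg was below both WT libraries, at 2.16 and 2.73 log2 against 3.56 and 3.29. Over the 15 H2B genes the median difference was -0.41 log2, and 0.31 against WT replicate 5. Of these, 11 lay above that library and 2 below (73.3% and 13.3%), against 41.8% and 33.4% of all tested genes. The 11 include near ties such as Hist1h2be, 0.0006 log2 above it in knockout replicate 1.

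The H3 genes were low throughout, with no value above 4.16 log2 in any library. Hist1h3e (chr13:23561534-23562369, minus strand) had the highest mean, at 2.76 and 2.36 log2 in knockout libraries, against 4.16 and 3.17 in WT libraries. Hist1h3f was at 1.52 and 2.23 log2, against 3.55 and 2.30. Hist1h3i was at 0.71 and 2.20 log2, against 3.61 and 2.33. In each of these genes, and in Hist1h3a and Hist1h3c, the knockout libraries were lower than both WT libraries. They make 5 of the 10 H3 genes, and no H3 gene lay above both WT libraries, against 18.8% and 17.3% of all tested genes. Of all genes under 2 log2, where 7 of the 10 H3 genes lay, 26.9% were below and none above both. Hist1h3e, Hist1h3f and Hist1h3i lay between 2 and 5 log2, where 33.9% of all genes were below and 5.61% above both. The limma differences of these genes lay between -1.52 for Hist1h3i and -0.43 for Hist1h3c.

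WT replicate 4 was the highest library in all 10 H3 genes. Hist1h3g was at 1.04 and 1.51 log2 in knockout libraries, against 2.91 in WT replicate 4 and 0.69 in WT replicate 5. Hist1h3d was at 0.19 and 0.15 log2 against 2.86 and 0.19, and Hist1h3h at 0.15 and 0.23 against 1.18 and 0.15. Over the class the median difference was -0.77 log2, and -0.10 against WT replicate 5. H3 was thus the one class whose median lay below WT replicate 5. Of its genes 4 lay above that library and 5 below (40% and 50%), against 41.8% and 33.4% of all tested genes. The share above was thus close to that of all genes. The 4 include near ties such as Hist1h3h, 0.0003 log2 above WT replicate 5 in knockout replicate 1. The difference between H3 and the other classes was not tested.

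Of the H4 genes, Hist1h4d (chr13:23581598-23582735, plus strand) had the highest mean, at 7.21 and 6.84 log2 in knockout libraries, against 5.28 and 6.90 in WT libraries. Hist1h4c followed at 4.56 and 5.08 log2 against 4.85 and 4.17, and Hist1h4h at 3.86 and 4.89 against 4.68 and 3.06. The groups overlapped in all 3 genes. Hist1h4m was at 3.17 and 3.81 log2, against 4.495 and 3.44. Hist1h4k was the 1 H4 gene below both WT libraries, at 2.103 and 1.72 log2 against 3.01 and 2.43.

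Hist2h4 and Hist4h4, both outside the main cluster, had the highest differences from WT replicate 5 of all 56 genes. Hist2h4 (chr3:96261682-96263311, minus strand) was at 2.39 and 4.06 log2 in knockout libraries, against 4.31 in WT replicate 4 and -0.55 in WT replicate 5. Hist4h4 (chr6:136801553-136804415, minus strand) was at 3.64 and 3.53 log2, against 4.32 and -0.13. In both genes the knockout libraries lay between the 2 WT libraries, nearer to replicate 4. Their knockout means lay 3.77 and 3.72 log2 above WT replicate 5, and the limma differences over all 4 libraries were 1.34 (SE 1.82) and 1.49 (SE 1.62), with adjusted p of 0.855 and 0.829. Over the 12 H4 genes the median difference was -0.03 log2, and 0.54 against WT replicate 5. Of these, 8 lay above that library and 1 below (66.7% and 8.33%), against 41.8% and 33.4% of all tested genes.

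**Figure D3:**
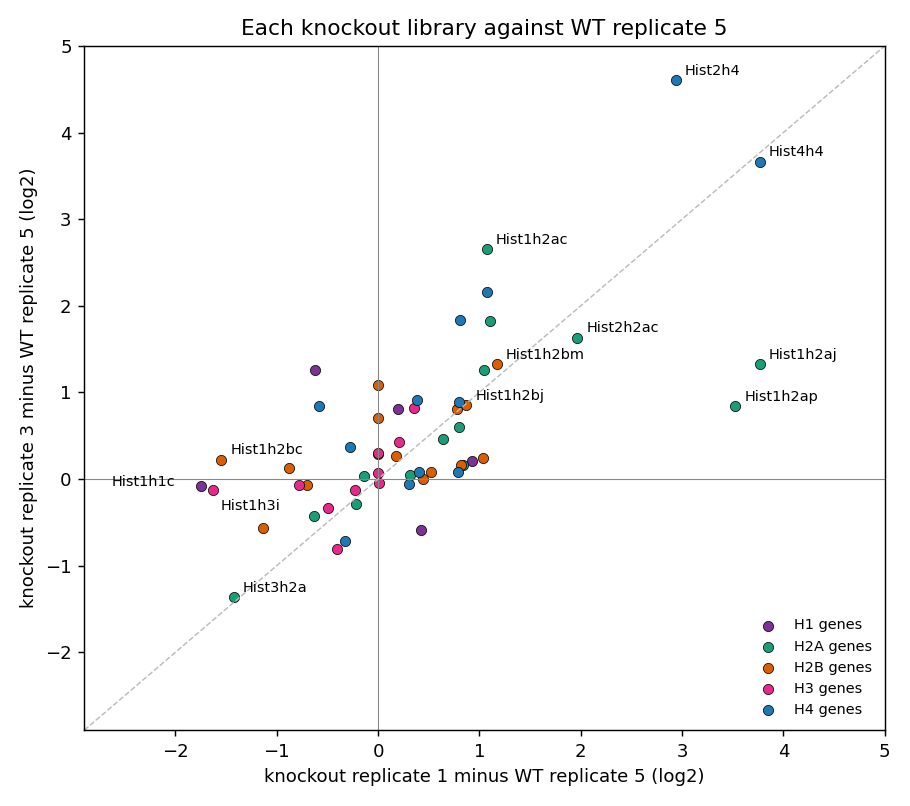
Knockout replicate 1 minus WT replicate 5 (log2, horizontal axis) against knockout replicate 3 minus WT replicate 5 (log2, vertical axis) for the 56 histone genes, coloured by class, with the dashed line where both are equal. 35 genes lie above 0 on both axes and 12 below 0 on both. Some of the 35, such as Hist1h2be and Hist1h3h, lie almost at 0 on the horizontal axis. Both axes share WT replicate 5, so the 2 axes are not independent.

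The knockout libraries were more than 1 log2 apart in 14 of the 56 genes (25%), against 21.2% of all tested genes. The widest of these splits were those of Hist1h2ap, Hist1h2aj, Hist1h1d, Hist1h2bc, Hist2h4 and Hist1h1c, and in the last 4 knockout replicate 3 was the higher one. Knockout replicate 3 carries the RNA-seq number 2 in its title and the other 3 libraries the number 1. That number cannot be told apart from the replicate, and its part in the result was not tested.

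Of the 56 genes, 2 had in the authors' deposited table an adjusted p under 0.05, both lower in the knockout, against 681 of all tested genes (3.94%). None was higher, against 27 of all (0.156%). In that table Hist1h2ag had a log2 fold change of -7.40 with an adjusted p of 0.00202, and Hist1h2ao one of -7.04 with an adjusted p of 7.08e-04. The authors' deposited table lists Hist1h2ap at -7.07 but with a p of 1. Of the 55 histone genes with a deposited fold change 43 were below 0 (78.2%), against 59.7% of 17185 tested genes, with a median of -1.58 against -0.62, and 39 histone genes had a deposited adjusted p of 1. The column is headed as WT against cKO but is read as knockout over WT, because it follows the knockout minus WT difference of the library values (r = 0.78 across those 17185 genes). In 6 histone genes the sign of the authors' deposited fold change was opposite to knockout minus WT of the library values. One is Hist1h1e, at -1.56 in the authors' deposited table although both knockout values lay above both WT libraries. Both genes called in the authors' deposited table are among those in which WT replicate 4 lay more than 8 log2 above the median of the rest.

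Across genes, levels were compared per length, as the mean log2 value of knockout replicates 1 and 3 and WT replicate 5 minus the log2 of the exonic length in kb. On this scale Hist1h2ag was the highest at 9.05, with the 3 libraries between 8.93 and 9.22. Hist1h2bc followed at 7.74 (6.64 to 8.41), then Hist1h2ao at 7.18 (6.85 to 7.69), Hist1h2ap at 6.94 (5.49 to 9.02), Hist1h1b at 6.91 (6.37 to 7.39) and Hist1h4d at 6.80 (6.66 to 7.02). The range of Hist1h2ag did not overlap that of Hist1h2bc but did overlap that of Hist1h2ap, which was the higher one in knockout replicate 1. Among the genes listed here, each later neighbour overlapped the gene before it. The median over the 56 genes was 2.96, with the 10 H3 genes at 1.64 and the 14 H2A genes at 3.80. Only 11, 11 and 9 of the 56 genes reached an unscaled log2 value of 5 in knockout replicate 1, knockout replicate 3 and WT replicate 5, against 10 in WT replicate 4.

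The annotated 3' ends divide the genes into 3 sets. In 18 genes the transcripts stop less than 100 bases past the stem-loop, and in 19 a transcript runs 100 bases or more past it. In the annotated transcripts of the other 19 the search found none. Some of these are short, such as Hist1h4k at 312 bases and Hist1h2bl at 381, and may lack the 3' end. That set is thus one of annotation, and not of genes shown to lack a hairpin. The per-length median was 3.47 for the 18 genes, 1.68 for the 19 that run on and 2.47 for the others, and the ranges of the 3 sets overlapped widely. The highest of all, Hist1h2ag, ends 23 bases past its stem-loop, while the annotated transcript of Hist4h4 runs on for 2445 bases and that of Hist1h4d for 770. Without the division by length the first 2 medians lay at 2.37 and 2.43 log2, so the gap between them rests on the longer annotated exons. Both knockout values lay above WT replicate 5 in 12 of 18, 10 of 19 and 13 of 19 genes (66.7%, 52.6% and 68.4%). This compares with 41.8% of all tested genes and 48.7% of those under 2 log2. The counts include the near ties described above.

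**Figure D4:**
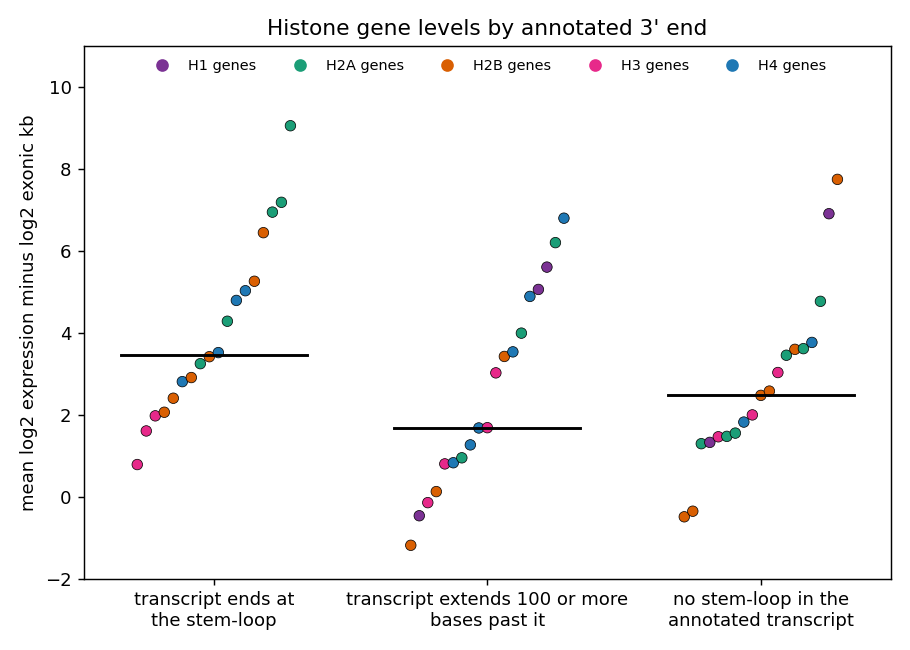
Mean log2 expression of knockout replicates 1 and 3 and WT replicate 5 minus log2 exonic kb (vertical axis) for the 56 histone genes in 3 sets by annotated 3' end, 1 point per gene coloured by class, with bars at the set medians of 3.47, 1.68 and 2.47. Within each set the genes are spread along the horizontal axis by rank, and the sets overlap over most of their range.

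Many histone genes are near copies of each other, so how reads were counted bears on their values. The share of 50-base stretches of a gene's exons that occur in no other annotated gene had a median of 50.4% over the 56 genes, was under 50% in 27 of them and under 10% in 8. Hist1h2ao and Hist1h2ap are among these 8, at 6.5% and 6.9%, and Hist1h2ag stood at 21.1%, so their values are uncertain. Hist1h1b and Hist2h2be stood at 100%. 5 genes that match the symbol pattern have no such stretch at all (Hist2h2aa1, Hist2h2aa2, Hist2h2bb, Hist2h3b and Hist2h3c1), and all 5 are listed at 0 in every library. Hist1h2ba and Hist1h4b, listed at 0 as well, have 61.8% and 24.1%. Exons of all 14 H2A genes, and of the 5 genes with no such stretch, overlap another annotated gene, on the opposite strand in most cases. A stretch within such an overlap counts as shared on either strand, so these shares do not measure near copies alone. The library protocol in the labels names no step that marks strand.

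Besides the 7 genes listed at 0, which were not counted as members, 6 had fewer than 2 libraries at 0 or more. Just outside the filter lay Hist1h2ad at -1.84 and -0.56 log2 in knockout libraries, against 4.82 and -0.38 in WT libraries, and Hist3h2ba at -0.21 and -0.16, against 0.41 and -0.21. Just inside lay Hist1h2af at 0.16 and -0.10 log2, against 0.48 and -0.15. Hist1h1t, the linker histone of the testis, was below 0 in all 4 libraries, between -1.08 and -0.85 log2.

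In the clusters H2A and H2B genes often stand head to head and share the stretch between their starts. 11 such pairs of measured genes had starts 175 to 301 bases apart. In 7 of them the knockout means of both partners lay on the same side of WT replicate 5. Because 35 of the 56 histone genes lay above that library, unrelated genes would often agree as well. The share for unrelated pairs was not computed, so the count of 7 says nothing of paired behaviour. In Hist1h2ag and Hist1h2bj they did not, at -0.26 and 0.86 log2, whereas in Hist1h2aj and Hist1h2bm both were higher, at 2.55 and 1.25. RefSeq promoters (GRCm38.p6, 250 bases before to 50 after the start) were matched for 50 of the 56 genes, with 51 promoters. CCAAT, a box bound by NF-Y, was found on either strand in 43 of them (84.3%), against 37.4% of 32851 promoters of the same length. TATAAA on either strand was found in 29 (56.9%), against 13.6%. CCAAT was in all 40 promoters of H1, H2A, H2B and H3 genes but in 3 of 11 H4 promoters. Promoters of head-to-head partners can overlap, as those of Hist1h2ag and Hist1h2bj do, so the same box can count for both. The match is a description of these letters and says nothing of binding.

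The stretch between Hist1h2ag and Hist1h2bj is shown because 1 partner holds the highest mean level per length and the other the clearest gap above both WT libraries. It is given on the plus strand, so that Hist1h2bj reads to the right and Hist1h2ag to the left, with CCAAT or its reverse complement ATTGG in capitals, 5 matches in all.
Hist1h2ag and Hist1h2bj (chr13:22042950-22043197, plus strand, GRCm38.p6): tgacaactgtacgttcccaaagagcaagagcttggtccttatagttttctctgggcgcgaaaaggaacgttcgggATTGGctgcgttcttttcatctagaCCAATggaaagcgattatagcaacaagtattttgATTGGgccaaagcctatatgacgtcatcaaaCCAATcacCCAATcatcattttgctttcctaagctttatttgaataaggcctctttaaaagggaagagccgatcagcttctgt

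Genes that act on histone mRNA and on histones were read from lists. Of 24 tested genes for the processing and decay of histone mRNA none was called. 9 lay above and 3 below both WT libraries (37.5% and 12.5%), against 17.3% and 18.8% of all tested genes, and 31.1% and 8.85% of those at 5 log2 or more, where most of these lists lie. 13 lay above and 5 below WT replicate 5 (54.2% and 20.8%), against 41.8% and 33.4% of all, and 39.5% and 35% of those at 5 log2 or more. Their median difference was 0.74 log2, and 0.25 against WT replicate 5. Slbp, which encodes the stem-loop binding protein, was at 10.48 and 10.66 log2 in knockout libraries, against 8.58 and 10.36 in WT libraries, so both knockout values were above both WT values by a limma difference of 1.10 (SE 1.11, adjusted p = 0.826). The authors' deposited table gives Slbp a log2 fold change of -3.76, of the other sign, with an adjusted p of 0.183. Ncbp2, a subunit of the cap-binding complex, was at 7.72 and 7.85 log2, against 5.34 and 6.32, and its unadjusted limma p of 0.042 did not pass the adjustment. Cstf2 and Cstf2t, cleavage factor subunits, lay 0.81 and 0.94 log2 above WT replicate 5. Against WT replicate 4 alone these 4 genes differed by 1.99, 2.44, 3.17 and 3.33 log2. Lsm11, a U7 snRNP protein named here after its value was seen, lay between the WT libraries, at 5.43 and 4.64 log2 against 6.29 and 1.14.

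The S phase list of 24 genes bears on histone genes because their transcription follows DNA replication. 13 of its genes lay above and 1 below both WT libraries (54.2% and 4.17%), against 31.1% and 8.85% of all genes at 5 log2 or more. Against WT replicate 5, 13 lay above and 3 below (54.2% and 12.5%), against 39.5% and 35% of those genes, with median differences of 1.38 and 0.28 log2. Gins2, a subunit of the replicative helicase, was at 7.85 and 7.94 log2 in knockout libraries, against 5.33 and 6.18 in WT libraries, with an unadjusted limma p of 0.028 and an adjusted p of 0.826. Gins1, of the same complex, was at 6.55 and 6.23 log2 against 4.89 and 5.01, and Prim1, of the primase, at 9.03 and 8.88 against 5.56 and 8.21. Gins2 and Prim1 differed from WT replicate 4 alone by 2.57 and 3.39 log2. Against WT replicate 5 the histone genes and this list had medians of 0.31 and 0.28 log2 for the knockout mean, but the single knockout libraries differed. This list had medians of 0.53 log2 in knockout replicate 1 and 0.06 in replicate 3, while the histone genes had 0.31 and 0.25. All tested genes had 0.006 and 0.016 log2. The list also lay at higher levels, with a median of 8.94 log2 in WT replicate 5 against 1.86 for the histone genes. The part of S phase cells in the histone values was not tested.

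Histone chaperones and replacement histones stood nearer to all genes when set against WT replicate 5. Of 22 chaperone genes 6 lay above and none below both WT libraries (27.3% above, against 31.1% of all genes at 5 log2 or more), and the median was -0.02 log2 against WT replicate 5. Chaf1a and Chaf1b, of the assembly factor that follows replication, lay 0.48 log2 each above WT replicate 5, and Mms22l 1.45 above it. A list of 11 genes held histone variants made outside S phase, which carry introns or poly(A) tails in most cases. Of these, 3 lay above and 3 below both WT libraries (27.3% each), so both shares rest on few genes. Among all genes at 5 log2 or more, where 9 of the 11 lay in WT replicate 5, 31.1% were above and 8.85% below. The median of the 11 genes was 0.05 log2 against WT replicate 5. H2afx was at 10.68 and 10.07 log2 in knockout libraries, against 19.94 and 10.69 in WT libraries, and H2afy at 9.92 and 9.80 against 18.76 and 10.40. H2afj was at 9.99 and 10.62 log2, against 7.81 and 9.73, whereas the authors' deposited table gives it a log2 fold change of -3.68. From WT replicate 4 alone the knockout means of H2afx and H2afy differed by -9.57 and -8.90 log2, and those of H2afj and Chaf1b by 2.49 and 3.17.

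Other RNAs that lack a poly(A) tail were read to see how much of such RNA the libraries held. The table holds 21 of these genes, of which 6 are listed at 0 and 9 passed the filter. 6 of the 9 lay above and 1 below WT replicate 5 (66.7% and 11.1%), against 41.8% and 33.4% of all tested genes. Among all genes under 2 log2 it was 48.7% and 26.9%. The median was 0.47 log2 for the knockout mean, but 0.0004 in knockout replicate 1 and 0.77 in replicate 3. The 6 include near ties such as Terc, 0.0003 log2 above WT replicate 5 in knockout replicate 1. Rn7sk, an abundant nuclear RNA named here after its value was seen, was at 7.92 and 9.18 log2 in knockout libraries, against 11.59 in WT replicate 4 and 6.56 in WT replicate 5. Snord13 was at 2.87 and 4.97 log2, against 11.53 and 1.79, whereas Scarna13 was at 1.18 and 1.48 against 2.39 and 1.73, and Terc at 0.19 and 0.27 against 1.33 and 0.19. Snord13 and Terc differed from WT replicate 4 alone by -7.61 and -1.10 log2. The summed level of the list was 8.11 and 9.34 log2 in knockout libraries, against 12.57 in WT replicate 4 and 6.93 in WT replicate 5. It was thus lowest in WT replicate 5 and highest in WT replicate 4. This sum is carried by Rn7sk and Snord13. The median of the 9 genes was 1.36 and 1.82 log2 in knockout libraries, against 2.83 and 1.601 in WT libraries, and so was lowest in knockout replicate 1. The median of the histone genes was 2.097 and 2.30 log2 in knockout libraries, against 3.71 and 1.86 in WT replicates 4 and 5. The part of untailed RNA that passed the selection in the histone values was not tested.

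**Figure D5:**
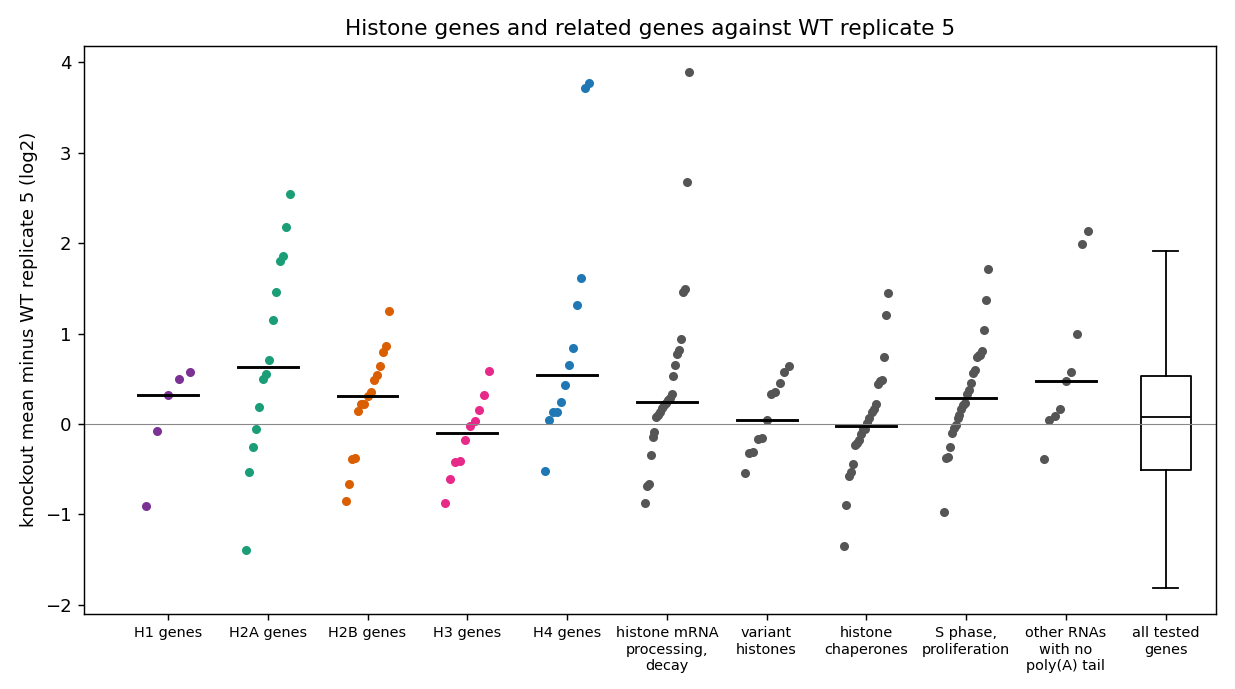
Knockout mean minus WT replicate 5 (log2, vertical axis) for the histone genes by class, for the lists of related genes, and for all 17303 tested genes, with 1 point per gene, bars at the medians, and for all genes a box at the quartiles with whiskers at the 5th and 95th percentiles. H2A and H4 genes have medians of 0.63 and 0.54, H3 genes -0.10, and all tested genes 0.07.

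Many markers of the other cells that bone marrow holds were at or near 0, but each list also held genes read well above it. All 12 myeloid markers were tested, with summed levels of 17.09 and 17.15 log2 in knockout libraries, against 24.36 and 16.60 in WT libraries. Of 10 T and NK cell markers 3 were tested, and Cd3e, Cd3g, Cd4 and Cd8a are listed at 0 in every library. The sum of this list was 9.40 and 9.53 log2 in knockout libraries, against 19.38 and 8.49 in WT libraries. Most of it was Nkg7, a granule gene of cytotoxic cells, at 9.37 and 9.45 log2 against 19.38 and 8.41. Lck, a T cell kinase, was at 3.72 and 5.20 log2 against 4.57 and 4.17. Of 10 B cell markers 3 were tested, with sums of 8.90 and 7.999 against 6.57 and 8.82 log2. In every library 2 of them stood at 5 log2 or more and made up most of the sum. Of 12 erythroid markers 8 were tested, with sums of 8.81 and 8.01 against 8.22 and 7.70 log2. Most of that sum was Tfrc, the transferrin receptor, which dividing cells of other types also carry, at 8.72 and 7.85 log2 against 7.31 and 7.42. Alas2, the erythroid enzyme of heme synthesis, was below both WT libraries, at -0.39 and -0.03 log2 against 2.96 and 3.33, a limma difference of -3.35 (SE 0.59, unadjusted p = 0.00305, adjusted p = 0.826). Alas2 and Nkg7 differed from WT replicate 4 alone by -3.16 and -9.97 log2. Of 6 megakaryocyte markers 4 were tested, with sums of 3.70 and 2.46 against 3.58 and 5.52 log2. The part of these cells in the histone values was not tested.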

How the data were processed

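RNA-seq of leukemia cells from mouse bone marrow was read from 1 table of the whole series, with 2 Ybx1 knockout and 2 WT libraries. Per the submitters' processing notes the build was GRCm38 and the tools included HISAT2 2.1.0, featureCounts, DESeq2 and CASAVA, whose roles are not given. The authors deposited log2 expression values per gene and library, by a normalization that is not given in the sources used here, and a log2 fold change with p-values per gene. The low values look like those of a shrunken log transform. No counts were used, depth is unknown, and no counting interval was computed. Another 30280 rows hold 0 in each library, and histone genes among them were not taken as members.

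Genes with a log2 value of at least 0 in at least 2 libraries, not at 0 in all, were tested with limma 3.58.1 (mean-variance trend, R 4.3.3) on the values as deposited. Benjamini-Hochberg adjustment ran over all 17303 genes, with calls at an adjusted p under 0.05, two-sided. A difference is the knockout mean minus the WT mean in log2 units, and its SE is limma's. Gene lists were described by counts and medians and not tested. The fit was tested on simulated data in which all 4 libraries had the spread of the knockout pair. That test does not cover the spread of WT replicate 4.

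Positions, exons and transcripts come from GENCODE M21, and promoter sequences from RefSeq. Members and gene lists were chosen with earlier results of these data known, including that WT replicate 4 stands apart. The named genes were Ybx1, the 4 histone genes of each class with the highest mean, up to 8 with the widest gap between the groups in each direction (only 4 existed with higher knockout values), those called in the deposited table, those with the highest and lowest difference from WT replicate 5, and the 3 genes of each list with the smallest limma p plus Slbp. Of the cell marker lists only Alas2, Tfrc, Nkg7 and Lck were given single values in the text. Other genes were named after their values were seen, in sentences on annotation, spread or level. Alternatives were leave-one-out fits, other filters, pseudocounts and scalings, and a fit without the trend.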

Additional observations from a re-analysis of the deposited data

How the results depend on the processing

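The table gives no counts, so the depth of the libraries and the floor of detection are unknown. The direction of the histone genes as a whole depended on which WT library was kept. With both WT libraries their median difference was -0.43 log2. It was 0.31 without WT replicate 4, -1.09 without WT replicate 5, -0.32 without KO replicate 1 and -0.51 without KO replicate 3. Quantile normalization gave 0.22, median centring -0.56, pseudocounts of 0.5 and 1 gave -0.36 and -0.34, and the filter of log2 5, which keeps 11 of the 56 genes, -0.06. Without WT replicate 4 it was 0.39 after median centring and 0.22 with the filter of log2 5. Against WT replicate 5 alone the median stayed above 0 in each alternative run, from 0.13 to 0.39.

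The number of genes called by limma was 0 with all libraries under each filter, pseudocount and scaling run, and ranged from 0 to 4960 when 1 library was left out (0 without WT replicate 4, 4960 without WT replicate 5, 26 without KO replicate 1, 88 without KO replicate 3). With the filter of log2 5 and without WT replicate 4 it was 101. Histone genes called ranged from 0 to 5 when 1 library was left out, with the 5 appearing without WT replicate 5, and were 0 in the other alternatives. In fits that leave 1 library in a group, that library is assumed to vary like the other group. Histone genes in which both knockout libraries lay under both WT libraries were 11, and 12 to 46 when 1 library was left out (18 without KO replicate 3). They were 1 with the filter of log2 5, 3 after quantile normalization, 7 after median centring, 7 with centring and without WT replicate 4, and 2 with the filter and without WT replicate 4. Those with both values above were 4, and 6 to 35 when 1 library was left out (7 without KO replicate 1). They were 13 after quantile normalization and 35 after centring without WT replicate 4.

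Of single genes named in the text, the limma difference changed sign in 7 after quantile normalization: Hist1h1d 0.0897, Hist1h3g 0.20, Hist1h3h 0.0604, Hist1h4k 0.0072, Hist1h2af 0.43, Scarna13 0.0206 and Terc 0.0377. It did so in 6 with the filter of log2 5 and without WT replicate 4: Hist1h1b -0.0805, Hist1h2ao 0.50, Hist1h2ap 2.18, Hist2h2be 0.22, Nkg7 0.9998 and Rn7sk 1.99. After median centring without WT replicate 4 it did so in 16: Hist1h1b -0.0052, Hist1h1d 0.39, Hist1h2ao 0.58, Hist1h2ap 2.26, Hist1h2ac 1.94, Hist1h2aj 2.62, Hist2h2be 0.30, Hist1h3g 0.66, Hist1h3d 0.0571, Hist1h3h 0.11, Hist1h4m 0.12, Hist1h2af 0.26, Terc 0.11, Snord13 2.20, Nkg7 1.08 and Rn7sk 2.07. Median centring changed the sign of Lck alone, to -0.0482. The other pseudocounts, no filter and no trend changed no sign among these genes. The cause of these changes was not tested. Fits without WT replicate 5 set the knockout against WT replicate 4 alone, so for single genes only their differences are given.

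When 1 library was left out, the differences of 24 named genes reached both signs. For H1 genes they ran from -0.0805 to 1.48 in Hist1h1b, from -0.91 to 0.78 in Hist1h1c and from -1.50 to 0.38 in Hist1h1d. For H2A genes they ran from -8.17 to 0.50 in Hist1h2ao, from -8.47 to 2.18 in Hist1h2ap, from -4.49 to 1.86 in Hist1h2ac, from -4.21 to 2.55 in Hist1h2aj, from -0.30 to 1.80 in Hist2h2ac and from -0.45 to 0.18 in Hist1h2af. For H2B genes they ran from -0.999 to 0.77 in Hist1h2bc and from -1.36 to 0.22 in Hist2h2be, and for H3 genes from -1.64 to 0.59 in Hist1h3g and from -0.99 to 0.0357 in Hist1h3h. For H4 genes they ran from -0.0298 to 0.65 in Hist1h4c, from -0.30 to 1.32 in Hist1h4h, from -1.01 to 0.0452 in Hist1h4m, from -1.08 to 3.77 in Hist2h4 and from -0.74 to 3.72 in Hist4h4. Outside the histone genes they ran from -1.25 to 3.90 in Lsm11, from -1.10 to 0.0394 in Terc, from -7.61 to 2.13 in Snord13 from -3.03 to 1.99 in Rn7sk, from -9.97 to 0.9998 in Nkg7 and from -0.65 to 0.83 in Lck.

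No paired analysis was possible because the groups share no replicate number (1 and 3 in the knockout, 4 and 5 in WT).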
